A study of Mus musculus with 4 samples.

Results

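Potassium channel genes carry names that begin with Kcn and encode the pore-forming and auxiliary subunits of the channels that let potassium leave the cell. They were chosen by name alone, as every region of the deposited methylation table whose gene name begins with Kcn, without the imprinted genes Kcnq1, Kcnq1ot1 and Kcnk9. The rule gave 3359 regions in 89 genes, out of 849172 regions and 25181 gene names in all. The methylation values come from whole-genome bisulfite sequencing of 4 libraries of hippocampal CA1 tissue from C57B6/J mice aged 117 days. The 2 libraries labelled Tet2+f_Camk2aCre carry what is read here as a floxed Tet2 allele, beside a Cre recombinase under the control of Camk2a, which is active in excitatory neurons of the forebrain. The 2 libraries labelled Tet2+f carry the same floxed allele without Cre and are the controls. The comparison asks whether a reduced dose of Tet2, an enzyme that oxidises 5-methylcytosine, in glutamatergic cells alters methylation. No group has Cre without the floxed allele, so reduced Tet2 and the Cre transgene cannot be told apart. Whether each library is a mouse of its own is not stated in the labels, so a p-value here reflects only how far these libraries differ among themselves.

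Potassium channels set the resting potential of a neuron, end its action potentials and decide how often it can fire. In CA1 pyramidal neurons the A-type channels of the dendrites damp back-propagating spikes, the M-current channels and the calcium-activated SK and BK channels slow repetitive firing, and inwardly rectifying and leak channels hold the membrane near rest. Most genes of vertebrates begin in a CpG-rich stretch that is free of methylation, while the rest of the gene is methylated at most of its CpG sites; CpG-poor starts are more often methylated. Bisulfite reads 5-hydroxymethylcytosine, the product of TET enzymes, as methylated too, so each level below sums both forms.

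Each region has a percent methylation in each library and no read count, so the depth behind a level is unknown and no interval can be given for it. Over all regions, the libraries averaged 75.96 and 75.82% in Tet2+f_Camk2aCre and 75.72 and 76.07% in Tet2+f, and the ranges overlapped. Because tissue was sequenced, a level averages over all cell types of CA1. A percent level does not show how many copies of the floxed allele remain, so the labels could not be checked on Tet2. The start of Camk2a, the gene whose promoter drives Cre, had 69.7 and 66.6% in Tet2+f_Camk2aCre against 30.5 and 30.4% in Tet2+f (limma, adjusted p = 0.189). Its part in the Kcn values was not tested. Without it, the starts of the other 5 glutamatergic marker genes looked at lay at 14.0 to 48.2%, those of the 4 interneuron markers at 13.9 to 86.4%, those of the 4 astrocyte markers at 32.9 to 82.7%, those of the 4 oligodendrocyte markers at 35.6 to 85.2%, those of 3 microglia markers at 63.3 to 80.01% and those of the 3 endothelial markers at 20.8 to 85.8%, each as a mean of the 4 libraries.

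Potassium channel genes with a region centred near the start showed, on average, a deep and narrow dip in methylation. A start here is the position given by RefSeq for GRCm38.p6, the assembly behind mm10. Regions centred within 0.5 kb of it averaged 16.5 and 16.6% in Tet2+f_Camk2aCre and 16.9 and 16.4% in Tet2+f, in the 61 genes with such a region. Each distance class has its own set of genes. With every region touching 2000 bp upstream to 500 bp downstream counted, the starts of all 89 genes averaged 41.8%. Between 0.5 and 2 kb downstream the levels were 30.7 and 30.1% in Tet2+f_Camk2aCre and 29.4 and 30.5% in Tet2+f. Between 2 and 5 kb downstream they reached 62.4 and 61.4% in Tet2+f_Camk2aCre and 60.4 and 61.1% in Tet2+f, and beyond 100 kb, in the 22 longest genes, 80.7 and 80.7% against 80.6 and 80.9%. Both Tet2+f_Camk2aCre libraries lay above both Tet2+f libraries at 2 to 5 kb, by a mean of 1.14 points. The same held at 20 to 100 kb, with 78.04 and 77.23% in Tet2+f_Camk2aCre and 76.85 and 77.02% in Tet2+f (0.704 points), and from 5 to 2 kb upstream, with 74.07 and 73.61% against 73.38 and 73.50% (0.402 points). At the other distances the groups overlapped. A share of 0.333 of the 6 arrangements of 4 libraries leaves 2 groups without overlap, and the distance classes share their libraries. Compared with all other named genes, the dip of the Kcn genes was about as deep at the start (16.6% against 17.8%, means of 4 libraries) and lay lower further into the gene, with 30.2% against 37.3% at 0.5 to 2 kb, 61.3% against 70.7% at 2 to 5 kb and 77.3% against 81.5% at 20 to 100 kb. Upstream, from 10 to 5 kb before the start, the Kcn genes had 75.03% and the other genes 77.1%. The 2 gene sets share their libraries, and no test of this difference was made.

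**Figure D1:**
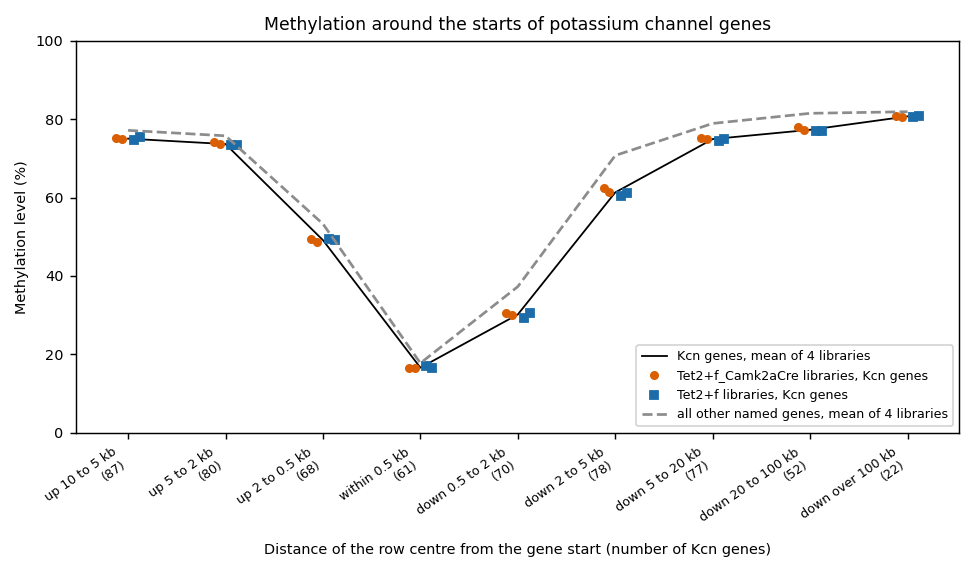
Mean methylation (%, vertical axis) of regions by the distance of their centre from the gene start (horizontal axis, with the number of Kcn genes in each class); orange circles are the 2 Tet2+f_Camk2aCre libraries, blue squares the 2 Tet2+f libraries, the solid line their mean over Kcn genes and the dashed line the mean over all other named genes. The Kcn line falls to 16.6% within 0.5 kb and returns to 61.3% at 2 to 5 kb, where other genes stand at 70.7%.

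The CpG content of the promoter sequence went with this dip. For 67 of the 89 genes RefSeq promoters of GRCm38.p6 were at hand, 92 in all, each reaching from 250 bp before to 50 bp after a start. The motif counted was CG, which reads the same on both strands; 94.7% of all 32807 promoters compared hold it, and 5.33% have none. The promoters printed here are the 2 CpG-richest among the genes named in this text, the CpG-poorest, and a CpG-poor and a CpG-rich promoter of the same gene, Kcnk2. All are written 5′ to 3′ on the strand of the gene with CG in capitals. Kcng3 encodes a silent subunit that joins Kv2 pores, and its promoter lies at chr17:83631846-83632145 on the minus strand with 49 CG. Kcnmb4 encodes the brain beta subunit of the BK channel (chr10:116473474-116473773, minus strand, 48 CG). Kcna10, a Kv1 channel of inner ear hair cells, has no CG in its promoter (chr3:107182893-107183192, plus strand). Kcnk2 encodes the leak channel TREK-1, and its outermost promoter (promoter 1, chr1:189402224-189402523, minus strand) has 6 CG, while an inner promoter (promoter 3, chr1:189343658-189343957, minus strand) has 33.
Kcng3: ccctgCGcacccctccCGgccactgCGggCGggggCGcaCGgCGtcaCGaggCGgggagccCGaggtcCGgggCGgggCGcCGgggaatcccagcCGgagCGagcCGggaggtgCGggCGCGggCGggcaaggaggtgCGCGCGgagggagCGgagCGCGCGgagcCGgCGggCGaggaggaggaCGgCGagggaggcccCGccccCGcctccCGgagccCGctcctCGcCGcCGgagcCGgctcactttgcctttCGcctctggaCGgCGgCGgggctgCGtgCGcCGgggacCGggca
Kcnmb4: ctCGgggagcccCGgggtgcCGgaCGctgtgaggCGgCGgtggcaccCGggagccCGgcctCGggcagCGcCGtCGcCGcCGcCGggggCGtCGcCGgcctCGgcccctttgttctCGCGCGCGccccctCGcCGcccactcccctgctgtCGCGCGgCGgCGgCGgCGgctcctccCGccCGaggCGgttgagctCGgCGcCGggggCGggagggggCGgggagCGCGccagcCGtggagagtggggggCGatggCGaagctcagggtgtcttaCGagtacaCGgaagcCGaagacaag
Kcna10: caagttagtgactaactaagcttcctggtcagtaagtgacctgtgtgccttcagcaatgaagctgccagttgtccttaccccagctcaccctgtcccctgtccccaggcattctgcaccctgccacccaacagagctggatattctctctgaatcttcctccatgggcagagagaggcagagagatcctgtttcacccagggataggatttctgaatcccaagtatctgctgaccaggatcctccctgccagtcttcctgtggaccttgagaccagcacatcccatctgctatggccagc
Kcnk2 promoter 1: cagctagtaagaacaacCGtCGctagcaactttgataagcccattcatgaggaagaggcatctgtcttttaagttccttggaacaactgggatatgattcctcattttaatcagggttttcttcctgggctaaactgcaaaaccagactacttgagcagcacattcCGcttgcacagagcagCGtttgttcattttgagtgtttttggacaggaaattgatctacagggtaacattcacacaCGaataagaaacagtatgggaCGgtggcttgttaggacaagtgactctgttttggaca
Kcnk2 promoter 3: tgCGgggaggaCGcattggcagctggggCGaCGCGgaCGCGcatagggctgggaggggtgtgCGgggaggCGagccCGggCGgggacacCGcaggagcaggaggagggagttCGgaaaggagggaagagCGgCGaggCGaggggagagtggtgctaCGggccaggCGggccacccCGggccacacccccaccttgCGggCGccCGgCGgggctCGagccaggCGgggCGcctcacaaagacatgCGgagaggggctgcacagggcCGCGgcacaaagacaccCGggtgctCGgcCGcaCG

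The regions that overlap these sequences differed widely in level. As means of the 4 libraries, the Kcng3 promoter stood at 0.548% and that of Kcnmb4 at 1.73%, while the single region of 3771 bp around the Kcna10 promoter, which has no CG of its own, stood at 80.4%. Within Kcnk2, promoter 1 was at 50.3% and promoter 3 at 0.882%. Across all 92 promoters, the 27 with at least 20 CG had a median level of 1.60%, and 26 of them were under 20%. The exception was Kcnh6, which encodes an ERG-type channel and was named here after its value was seen: its promoter has 24 CG and stood at 41.8%. That level averages 2 regions with a mean length of 1228 bp, which reach far beyond the promoter. The median length in this class was 342 bp. Of the 2 Kcnh6 regions, the one that runs into the gene stood at 30.7%. The 17 promoters with 10 to 19 CG had a median of 8.42%, the 33 with 4 to 9 CG a median of 46.0%, and the 15 with at most 3 CG a median of 71.5%. Promoters of all other genes had medians of 1.17, 16.7, 74.3 and 80.7% in the same classes, from CG-rich to CG-poor. The rank correlation of CG number with level was -0.72 over the 92 Kcn promoters and -0.77 over all promoters; promoters of a gene often share regions, libraries and base composition, so this is a description. Kcn promoters held a median of 9 CG, against 7 over all promoters. Promoters with at least 20 CG averaged 4.20 and 4.63% in Tet2+f_Camk2aCre and 3.78 and 4.28% in Tet2+f, and those with at most 3 CG averaged 67.1 and 66.4% against 65.7 and 65.8%.

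**Figure D2:**
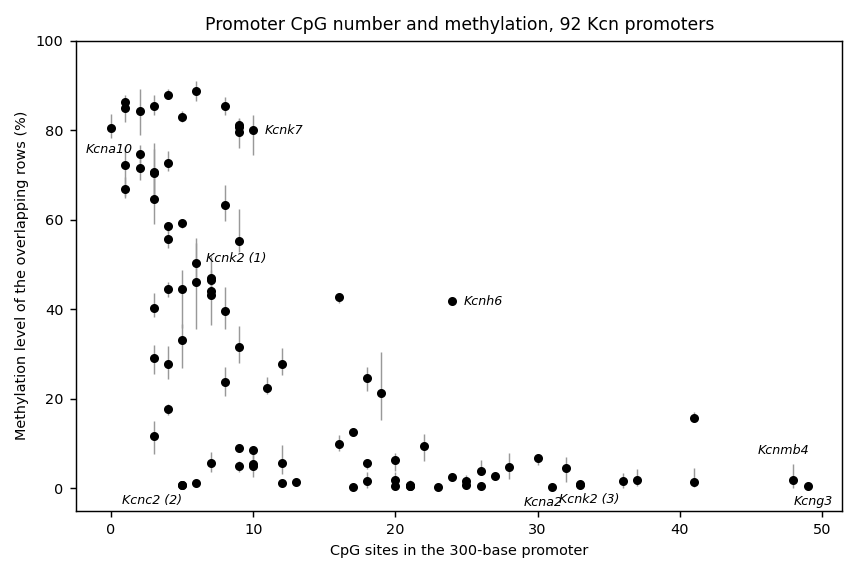
Each point is a RefSeq promoter of a Kcn gene, with its number of CpG sites in 300 bases (horizontal axis) and the methylation of the overlapping regions (%, vertical axis, mean of 4 libraries; grey bars run from the lowest to the highest library); numbers in brackets are promoter numbers. Kcng3 and Kcnmb4 lie at the low right, Kcna10 at the high left, and Kcnh6 stands at 41.8% with 24 CpG sites.

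CpG number and level did not always go together. Kcnc2, which encodes a Kv3 channel of fast-firing neurons, has inner promoters with 5 CG at 0.660% and with 6 CG at 1.07%, while its outer promoter with 3 CG stood at 70.5%. Kcnk7, a K2P gene, had 79.9% with 10 CG. The length of a region also went with its level: the 216 Kcn regions of at most 500 bp had a median of 1.05%, and the 1202 of more than 3000 up to 6000 bp had a median of 83.2%. In all other regions these medians were 0.662 and 84.5%. How the authors drew the regions is not given in the sources used here.

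Several genes had their unmethylated stretch far inside the gene rather than at the outermost start. In 10 genes the outermost RefSeq start and the first deposited region of the gene lay more than 5 kb apart by the gene's strand. Kcna2 encodes Kv1.2, a channel of axons. Its outermost start (chr3:107090883-107115005, plus strand) had 79.7 and 76.7% in Tet2+f_Camk2aCre and 80.3 and 78.6% in Tet2+f. At the start of its deposited regions, 10369 bp further in, the levels were 16.5 and 15.2% in Tet2+f_Camk2aCre and 15.9 and 16.2% in Tet2+f. The 4 regions from 10.4 to 11.7 kb lay between 0 and 1.08% in every library, and the first of them hold the annotated promoter with 31 CG. All 4 libraries had the drop at the inner promoter and none at the outer start.

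Kcnj3 encodes GIRK1, a G protein-gated inward rectifier of hippocampal neurons (chr2:55411798-55598145, plus strand). Its outermost start had 86.0 and 81.9% in Tet2+f_Camk2aCre against 85.7 and 86.1% in Tet2+f, and the start 23793 bp further in had 39.95 and 37.5% against 40.9 and 39.2%. In Kcnk2 (chr1:189207930-189402782, minus strand) the outer start had 67.1 and 69.4% in Tet2+f_Camk2aCre and 65.4 and 67.3% in Tet2+f, and the inner start, 58822 bp away, had 26.0 and 24.8% and 25.7 and 24.9%. Its regions over promoters 3 and 4 stood at 0 to 2.52% in the 4 libraries. Kcnj4, which encodes the inward rectifier Kir2.3, had 44.9% at the outer and 12.7% at the inner start, as means of 4 libraries. Kcnma1, the pore of the BK channel, showed the opposite order, with 13.2% at the RefSeq start and 80.6% at the deposited one, 201495 bp into the gene. The other 5 such genes had 33.6 and 72.0% (Kcna5), 29.9 and 44.3% (Kcnn1), 47.1 and 46.6% (Kcnab1), 79.3 and 79.9% (Kcnj15) and 90.2 and 83.5% (Kcnmb3), with the RefSeq start first.

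**Figure D3:**
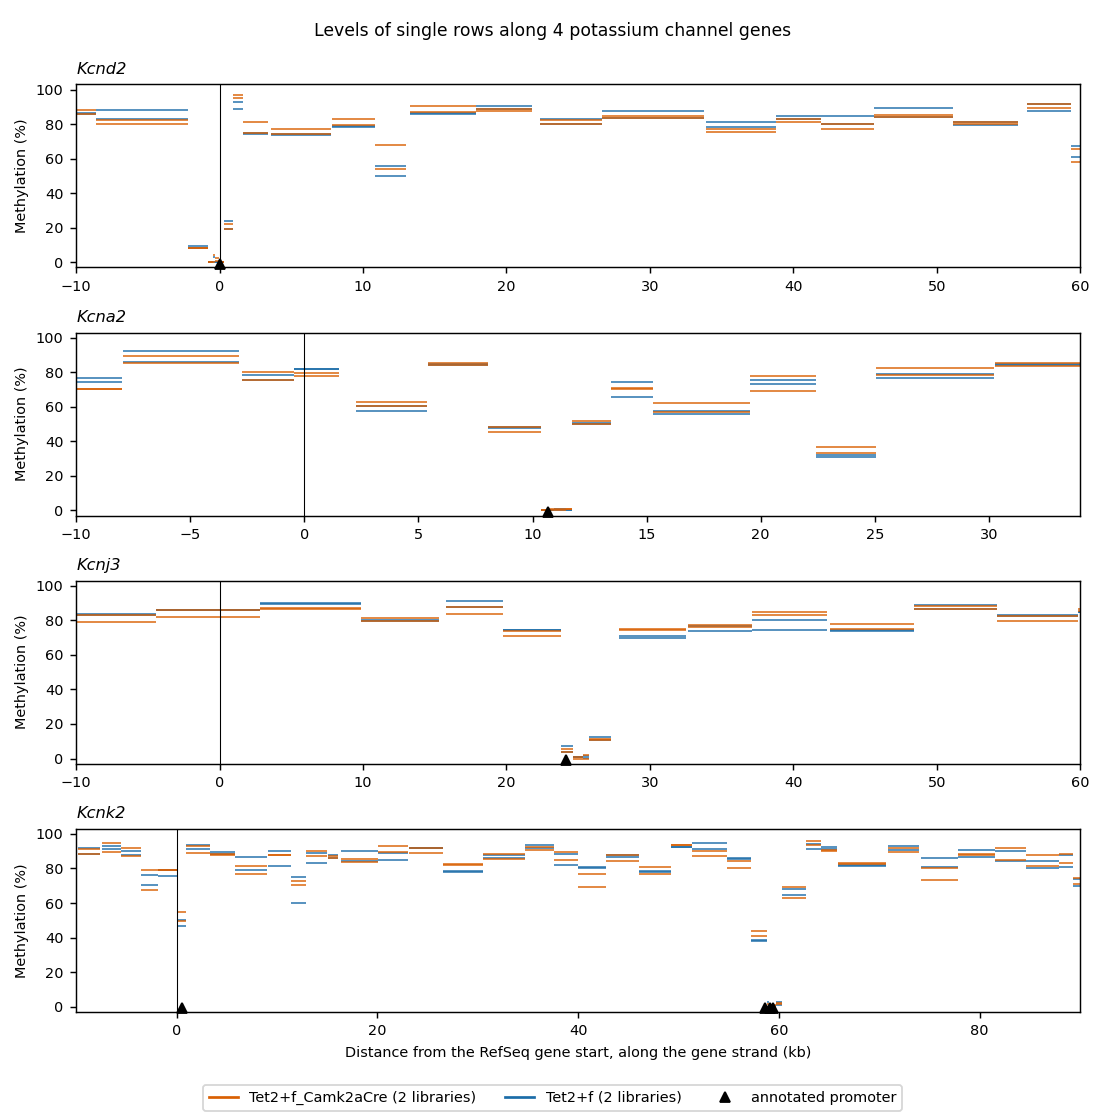
Methylation (%, vertical axis) of single regions along Kcnd2, Kcna2, Kcnj3 and Kcnk2 by distance from the RefSeq start in kb (horizontal axis); each bar spans a region, orange for the 2 Tet2+f_Camk2aCre libraries and blue for the 2 Tet2+f libraries, and triangles mark annotated promoters. The low stretch lies at the start of Kcnd2, between 10.4 and 11.7 kb into Kcna2, from 23.8 kb into Kcnj3 and near 59 kb into Kcnk2, in all 4 libraries.

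The name Kcna5 covers more than its gene. Its 80 regions run from 126530127 to 126700016 on chromosome 6, whereas RefSeq places Kcna5 at chr6:126532551-126535555 and only 5 of the regions overlap it, with a mean of 56.3%. A further 11 of these regions overlap RefSeq Kcna1 (chr6:126636463-126645801), the gene of Kv1.1, a subunit that limits axonal excitability. Over Kcna1 the levels were 21.5 and 24.2% in Tet2+f_Camk2aCre and 21.0 and 22.9% in Tet2+f. No region carries the name Kcna1, so the gene level of Kcna5 mixes both genes and the stretch between them.

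Start levels were then compared among the channel families, as the mean of all regions overlapping the stretch from 2000 bp upstream to 500 bp downstream of the RefSeq start. The 89 Kcn starts ran from 5.08 to 90.2% with a median of 34.1%, against a median of 37.7% over 19611 other genes. There were 19 starts under 20%, 41 at 20 to 50% and 29 over 50%, which is 21.3, 46.1 and 32.6% of the Kcn starts. The other genes had 24.1, 33.1 and 42.8% in these classes. Long regions that overlap the window count whole, so a start of a few percent in its core can average 20 to 50% or even over 50%.

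Among the pore subunits of the delayed rectifier and A-type Kv channels, 6 of 16 starts were under 20% and the median was 23.2%. The lowest was Kcnd2, the gene of Kv4.2, which carries the dendritic A-type current of CA1 pyramidal neurons (chr6:21215346-21729805, plus strand). Its start had 5.57 and 5.51% in Tet2+f_Camk2aCre and 5.81 and 4.87% in Tet2+f, and the rest of the gene averaged 82.5%. At the other end, Kcna10 had 83.7 and 80.4% in Tet2+f_Camk2aCre and 79.4 and 78.3% in Tet2+f at its start. The Kcna10 groups did not overlap, but the difference of 3.23 points did not pass the test (limma, adjusted p = 0.961). Kcna3, which encodes Kv1.3, was low throughout, with 11.7% at its start and 21.2% beyond it.

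The modulatory Kv subunits, which do not form channels alone but alter Kv2 pores, had a median start of 41.6% and 1 of 10 starts under 20%. Their lowest start was Kcng3, with 7.68 and 10.1% in Tet2+f_Camk2aCre and 8.62 and 8.37% in Tet2+f. Their highest was Kcnv2, a subunit of photoreceptors, with 78.4 and 78.9% against 81.5 and 80.01%. Of the 4 Kv7 genes, which make up the M current, Kcnq5 had the highest start at 38.5%, as a mean of 4 libraries, and Kcnq3, a subunit of the neuronal M channel, stood at 21.2%. No Kv7 start was over 50%.

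In the EAG family, 4 of 8 starts were under 20% and the median was 19.3%. Kcnh3, an Elk-type channel of the forebrain, had the lowest start of all Kcn genes, with 5.28 and 4.18% in Tet2+f_Camk2aCre and 5.28 and 5.58% in Tet2+f. It differed from Kcnd2 in the order of levels by less than the spread between libraries. Kcnh1, the gene of Eag1, had the highest start of the family at 67.5%. Its RefSeq promoter with 27 CG, whose transcription start lies 1633 bp into the gene and outside the start window, stood at 2.77%.

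The inward rectifiers had a median start of 39.5%. Kcnj12, which encodes Kir2.2, was lowest with 15.02 and 14.99% in Tet2+f_Camk2aCre and 13.65 and 15.31% in Tet2+f. Kcnj16, the Kir5.1 partner of Kcnj10, was highest with 85.5 and 86.3% against 85.4 and 86.6%. The K2P leak channels had the highest family median, 55.7%, and 7 of 13 starts over 50%. Some of these 7 genes nonetheless held a low annotated promoter, as a mean of the 4 libraries. The gene at the median had 5.60% over a promoter at its start. Kcnk1 had 4.98% at a promoter 1447 bp into the gene, and Kcnk2 had 0.882% at promoter 3. The rest of the 7 had promoters at 55.3 to 88.7%. Kcnk12, a THIK-type gene, was at 13.7% and Kcnk18, the TRESK channel of sensory neurons, at 84.5%. Among calcium- and sodium-activated channels the BK pore gene Kcnma1 had 12.8 and 11.6% in Tet2+f_Camk2aCre and 15.1 and 13.3% in Tet2+f. Kcnu1, its sperm-specific relative, averaged 91.1% in Tet2+f_Camk2aCre and 88.8% in Tet2+f, from 87.7 to 92.2% over the 4 libraries.

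Among the 15 auxiliary genes the beta subunits of BK gave both ends: Kcnmb4 had 12.5 and 10.1% in Tet2+f_Camk2aCre and 9.60 and 11.5% in Tet2+f at its start, and Kcnmb3 had 90.7 and 89.9% against 89.8 and 90.3%. The Kcne genes, single-span partners of Kv7 and other pores, had starts between 75.5 and 83.4% apart from the X-linked Kcne1l at 44.3%. The Kcnab genes, cytosolic beta subunits of Kv1 channels, lay between 14.1 and 47.1%, and the Kcnip genes, calcium-binding partners of Kv4 pores, between 31.2 and 57.3%. Kcnrg, a regulator of Kv assembly with a single region, had a start of 86.2%.

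**Figure D4:**
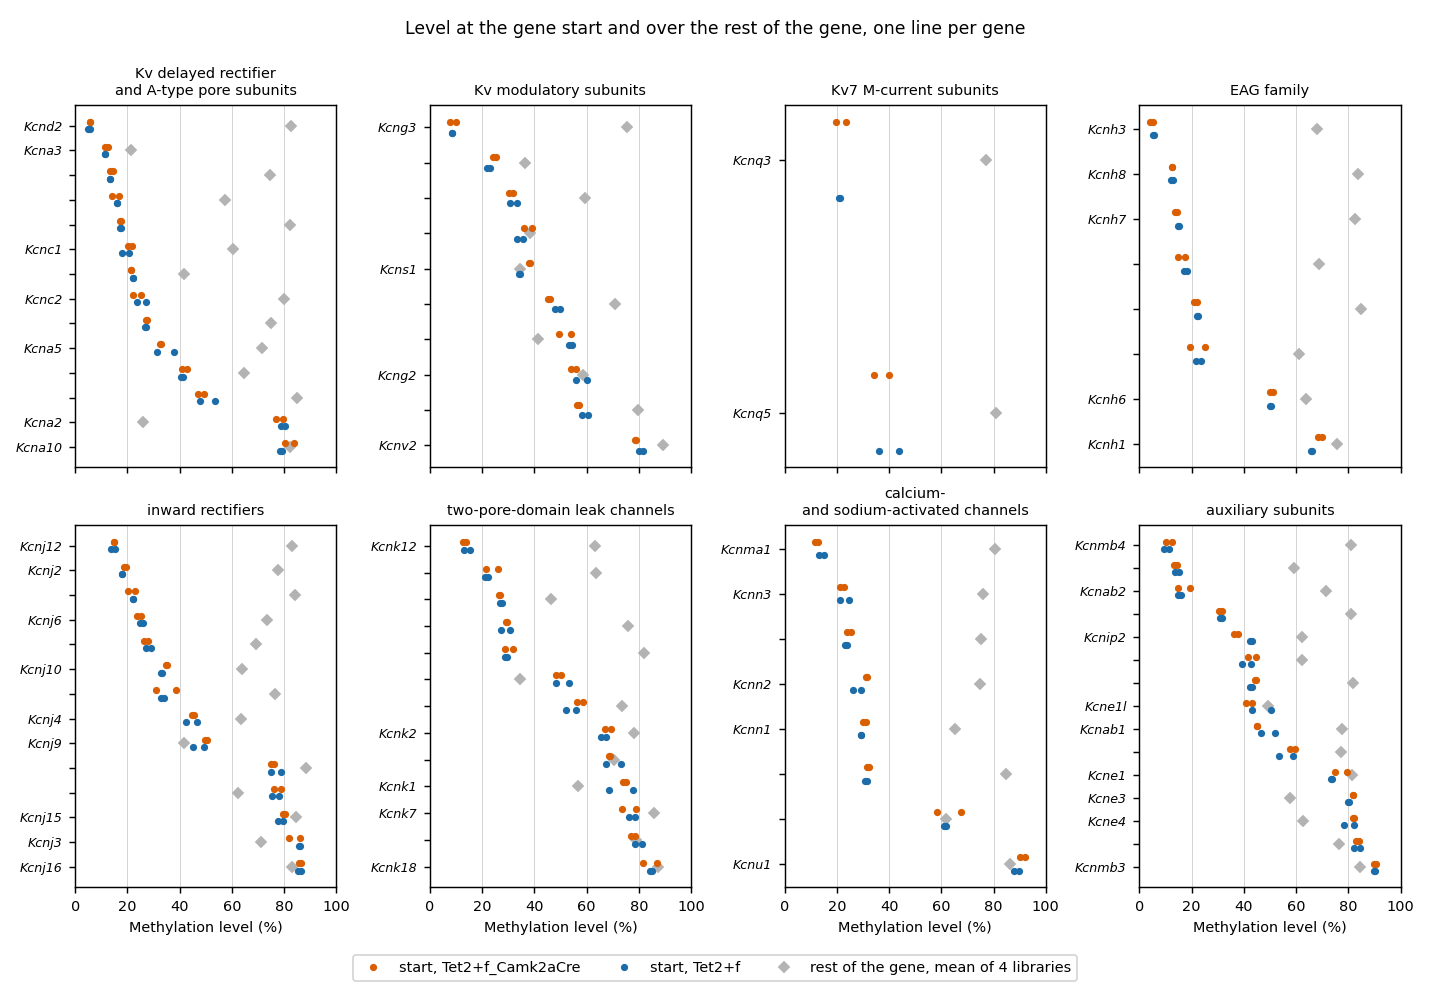
Methylation (%, horizontal axis) at the start of Kcn genes, a line per gene grouped by channel family, with orange points for the 2 Tet2+f_Camk2aCre libraries, blue points for the 2 Tet2+f libraries and grey diamonds for the rest of the gene (mean of 4 libraries). Orange and blue points lie close together while genes spread from 5.08% (Kcnh3) to 90.2% (Kcnmb3); only genes named in the text carry a name, and Kcnrg and 4 genes not reported here are not drawn.

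The rest of the gene was more methylated than its start in 72 of 89 genes. Start minus body was -27.4 and -27.8 points in Tet2+f_Camk2aCre and -26.8 and -27.4 points in Tet2+f, as means over genes. The group difference of -0.449 points did not exceed the spread between libraries (exact two-sided permutation test over 6 arrangements, p = 0.667; the smallest possible is 0.333). In 18 genes a start under 20% stood beside a body over 50%, and in 27 genes both were over 50%. Among the 17 genes with a body below the start, the gap was widest in Kcna2, at 78.8% for the start and 25.8% for the 7 body regions that carry its name. All 12 regions within Kcna2 beyond its start averaged 40.02%. With regions of any name counted, a choice made after seeing the data, 16 genes had the body below the start, and the Kcna2 gap was still the widest. Kcne3 had 80.9 and 57.5%, Kcne4 81.1 and 62.7%, and Kcnk1, the gene of the leak channel TWIK-1, 73.8 and 56.8%. The body as defined here can include an inner promoter, as in Kcna2. In Kcne3 it holds a promoter at 5.66%, 2176 bp into the gene, and in Kcnk1 a promoter at 4.98%, 1447 bp in. The only listed promoter of Kcne4 stood at 81.1%.

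Low levels were not limited to the start windows. Of the 3359 Kcn regions, 255 were under 20% (7.59%, against 6.57% of all regions) and 1848 over 80% (55.0%, against 63.2%). Of these low regions, 94 overlapped a start as defined here, 154 lay in the bodies of 54 genes, and 7 were outside the RefSeq span. A low body region can continue the low stretch of a start. In Kcna3 a body region at 8.85% directly follows a start region at 0.166%, as means of 4 libraries. How many of the 154 do so was not counted. Of the 154, 21 overlapped a promoter of the RefSeq promoter table, which lists 67 of the 89 genes. Low regions that adjoin such a promoter without touching it are not among the 21. In Kcnj3, 1 of 4 low body regions in a row overlapped the promoter. Kcng2, a modulatory Kv subunit, had 10 low body regions of 44. Kcnn2, the gene of the SK2 channel of CA1 neurons, had 9 of 116, and Kcnk12 had 8 of 33.

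Between the groups, no potassium channel gene, start or region passed the test. With limma on logit-transformed levels over all features, 0 of 89 Kcn genes, 0 of 89 Kcn starts and 0 of 3359 Kcn regions passed an adjusted threshold of 0.05, and the background was 0% in each of the 3 fits. The smallest adjusted p among them was 0.939 for genes, 0.961 for starts and 0.937 for regions. At an unadjusted p under 0.05 there was 1 gene (background 5.3%), which was higher in Tet2+f_Camk2aCre (background 2.65% higher and 2.65% lower). There were 2 starts (background 5.09%), 1 higher (background 2.5%) and 1 lower (background 2.58%), and 139 regions (4.14% of the Kcn regions, background 4.6%). Of these regions, 75 were higher in Tet2+f_Camk2aCre (background 2.25%) and 64 lower (background 2.35%). On simulated levels with 200 changed genes or starts, the same fits recovered 0% of changes of 10 points, 70.5% of the genes and 86% of the starts changed by 20 points. The simulated features were all raised from levels above 20% and well below 57.6%, the lower quartile of Kcn gene levels. No change from a level near that quartile or above it was simulated. For features like these, changes of 10 points were not recovered, and smaller changes were not simulated. At 30 points, 83.5% of the genes and 94.5% of the starts were recovered. The adjusted threshold depends on how many features change, so these shares hold for 200 changed features. Recovery at other levels or with fewer changed features was not tested. In the data, the start of Camk2a differed by 37.7 points and did not pass (limma, adjusted p = 0.189).

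The means over all Kcn genes lay within 1 point of each other. Kcn regions averaged 73.2 and 73.0% in Tet2+f_Camk2aCre and 72.8 and 73.1% in Tet2+f, a difference of 0.172 points (exact two-sided permutation test, p = 0.667). Counting each gene once, the levels were 65.4 and 65.2% in Tet2+f_Camk2aCre and 64.7 and 65.0% in Tet2+f, a difference of 0.379 points. The groups did not overlap, and the exact two-sided permutation test gave p = 0.333, the smallest it can give with these 4 libraries. Starts averaged 42.1 and 41.5% against 41.8 and 41.6% and overlapped (difference 0.0831 points, p = 1 by the same exact test). Over all gene names the corresponding gene means were 67.8 and 67.7% in Tet2+f_Camk2aCre and 67.6 and 67.9% in Tet2+f, so the ranges overlapped there.

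Gene by gene, 59 of 89 Kcn genes had the higher mean in Tet2+f_Camk2aCre (66.3%, background 51.1%), with a median difference of 0.380 points against 0.0242 points over the other genes. In 20 genes both Tet2+f_Camk2aCre libraries lay above both Tet2+f libraries (22.5%, background 17.1%), and in 14 both lay below (15.7%, background 16%). At the starts, 48 of 89 had the higher mean in Tet2+f_Camk2aCre (53.9%, background 50.8%); both libraries lay above in 19 (21.3%, background 17%) and below in 11 (12.4%, background 16.7%). These shares count small differences: the median difference without its sign was 0.665 points for genes, beside a median SD within a group of 0.518 points. By family, the mean over regions differed by 0.653 points in inward rectifiers, which had 71.2 and 71.2% in Tet2+f_Camk2aCre and 70.1 and 71.0% in Tet2+f. Without the first Tet2+f library the inward rectifier difference was 0.196 points, and without the second 1.11. K2P channels differed by 0.244 points (0.104 and 0.384 without the first and the second Tet2+f library) and Kv pore subunits by 0.221 (0.116 without the first). Weighting by region length brought these to 0.0919 and 0.0223 points, and counting each gene once to 0.543 and 0.479. The remaining families differed by -0.0705 to 0.135 points. With 4 libraries no family could pass the exact test.

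Among genes whose groups did not overlap, Kcnh6 had the largest difference upward. Its gene level was 67.5 and 61.3% in Tet2+f_Camk2aCre against 59.92 and 59.97% in Tet2+f, with means of 64.4 ± 4.38% and 59.9 ± 0.0396% (SD, n = 2 each). That is 4.44 points, with an adjusted p of 0.981 in limma. The first Tet2+f_Camk2aCre library stood apart from the other 3, and without it the difference was 1.34 points; without the second it was 7.54. The widest gap within it lay at the far end of the gene (chr11:106033034-106033534), where the levels were 51.2 and 27.1% in Tet2+f_Camk2aCre and 0 and 14.7% in Tet2+f. The region next to it had 47.6 and 27.7% against 26.2 and 13.5%, so both lay higher with Cre but with a wide spread.

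Kcnj2, which encodes the classical inward rectifier Kir2.1, came next at the gene level with 54.6 and 56.0% in Tet2+f_Camk2aCre and 50.7 and 53.6% in Tet2+f (3.15 points). Kcna3 had 8.88 and 9.16% against 4.58 and 7.23% (3.11 points), with the widest gap in its last region, at 35.2 and 42.4% against 22.4 and 34.3%. Without the first Tet2+f library these differences were 1.69 points in Kcnj2 and 1.79 in Kcna3, and weighting by region length gave 5.94 in Kcna3. In the other direction Kcne1l, on chromosome X, had 26.1 and 28.1% in Tet2+f_Camk2aCre and 29.9 and 40.1% in Tet2+f, a difference of -7.89 points. The second Tet2+f library stood above the other 3, and without it the difference was -2.82 points; without the first it was -12.96. X-linked starts in general averaged 52.9 and 52.6% in Tet2+f_Camk2aCre and 53.0 and 53.1% in Tet2+f. Kcnh8, an Elk-type channel gene, followed with 81.7 and 81.7% against 82.6 and 83.3% (-1.28 points), and Kcnv2 with 88.0 and 89.1% against 89.5 and 90.1% (-1.27 points; -0.680 without the first Tet2+f_Camk2aCre library).

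At the starts, Kcnip2 had the widest gap. Its product KChIP2 binds Kv4 pores and is best known from the heart's transient outward current. The start (gene at chr19:45792346-45816422, minus strand) had 36.1 and 37.7% in Tet2+f_Camk2aCre against 43.2 and 42.4% in Tet2+f, with means of 36.9 ± 1.13% and 42.8 ± 0.590% (SD, n = 2 each). The difference of -5.91 points had an unadjusted p of 0.0122 and an adjusted p of 0.961 in limma. Most of it lay in the region centred at -685 bp from the start (chr19:45816481-45817733), with 43.8 and 46.9% in Tet2+f_Camk2aCre and 58.1 and 63.4% in Tet2+f. The region over the start itself had 0 and 0.617% against 3.51 and 2.62%. It alone carries the gene's name, and with only such regions the difference was -2.76 points; a window of 500 bp on both sides gave -9.10.

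Kcns1, a modulatory subunit, had the largest start difference upward, with 38.2 and 37.8% in Tet2+f_Camk2aCre against 34.1 and 34.4% in Tet2+f (3.75 points; unadjusted p = 0.038, adjusted p = 0.961 in limma). It was also the single Kcn gene with an unadjusted p under 0.05 at the gene level, at 33.5 and 34.4% against 31.2 and 31.98%. The region centred at -445 bp from its start held most of the difference, with 18.2 and 22.8% in Tet2+f_Camk2aCre and 9.59 and 12.3% in Tet2+f. That region does not carry the name Kcns1, and with only regions that do, the start difference was 1.30 points. Kcnn2 had 31.4 and 31.3% against 26.3 and 29.2% at its start (3.59 points), and Kcne1, the minK partner of Kv7.1, had 79.5 and 75.0% against 73.6 and 73.9% (3.52 points). For Kcnn2 the sign turned to -0.154 points when only regions carrying its name were used, and the difference was 2.18 points without the first Tet2+f library. For Kcne1 it was 1.25 points without the first Tet2+f_Camk2aCre library and 5.78 without the second. On the other side stood Kcne1l with 40.7 and 42.9% in Tet2+f_Camk2aCre and 43.0 and 50.5% in Tet2+f (-4.93 points) and Kcnab1 with 44.9 and 45.0% against 46.5 and 52.0% (-4.28 points). Without the second Tet2+f library these were -1.21 points in Kcne1l and -1.53 in Kcnab1, and without the first -8.65 and -7.03. At the first deposited region of the gene the Kcne1l difference was -0.0322 points, and that of Kcnab1 turned to 0.644. Windows of 1000 and 500 bp on both sides gave -7.89 and -7.99 points in Kcne1l.

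**Figure D5:**
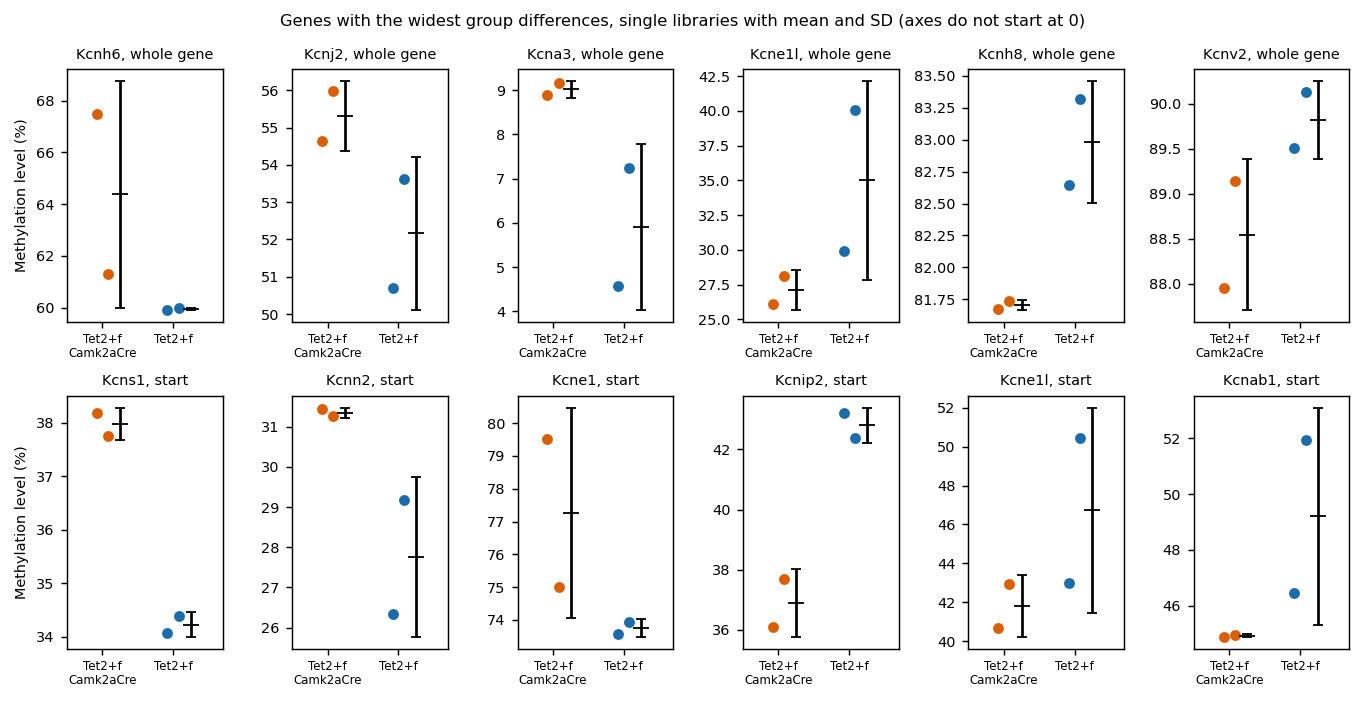
Methylation (%, vertical axes, which do not start at 0) of the Kcn genes with the widest differences among those without overlap, for whole genes (top) and starts (bottom); orange points are the 2 Tet2+f_Camk2aCre libraries on the left, blue points the 2 Tet2+f libraries on the right, with mean and SD beside them. Kcnip2 starts lie at 36.1 and 37.7% against 43.2 and 42.4%, and in Kcnh6, Kcne1l and Kcnab1 a single library sets much of the gap.

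Single regions followed the same pattern of small p-values without a pass. The smallest p belonged to a region of Kcnd2, 179414 bp from its start, at 100 and 100% in Tet2+f_Camk2aCre and 88.0 and 93.5% in Tet2+f (limma, adjusted p = 0.937). It ranked 119 among all regions of the table. Next were regions near the floor, where the logit scale widens small steps: 2.33 and 3.06% in Tet2+f_Camk2aCre against 0 and 0% in Tet2+f in Kcng3, and 0 and 0% against 1.92 and 1.92% in Kcnmb4. A region of Kcnh7, an ERG-type gene, had 95.8 and 96.2% against 89.9 and 89.8%, and a region of Kcnj9, the gene of GIRK3, had 3.33 and 3.79% against 13.0 and 10.4%. After the Kcnh6 region described above, a wide difference upward was 18.1 points in Kcng3, at 75.3 and 70.0% against 61.1 and 47.8%. The widest differences downward were -14.7 points in Kcne1l, at 3.26 and 14.7% against 16.3 and 31.1%, and -13.6 points in Kcnn3, at 63.9 and 51.7% against 72.9 and 69.9%. Leaving out single libraries gave 11.5 to 24.8 points for the Kcng3 region, -22.1 to -7.28 for that of Kcne1l and -19.7 to -7.54 for that of Kcnn3. All of these had an adjusted p of 0.937 in limma.

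Genes with known roles in CA1 pyramidal neurons were looked at as a list of 20, of which 19 have regions of their own name. Their median start level was 27.0%, from 5.44% in Kcnd2 to 84.9% in Kcnj3. Besides Kcnd2, starts under 20% included Kcnma1 (13.2%) and Kcnab2, a Kv1 beta subunit (16.3%). Between 20 and 25% lay Kcnc1, a Kv3 channel (20.2%), Kcnq3 (21.2%), Kcnn3 (22.5%) and Kcnj6, the gene of GIRK2 (24.9%). At the gene level 13 of the 19 had the higher mean in Tet2+f_Camk2aCre (background 51.1%) and 6 the lower, with a median difference of 0.631 points (0.0242 over genes outside the Kcn names). Both libraries lay above in 5 (background 17.1%), below in 3 (background 16%), and the groups overlapped in 11. At the start the counts were 12 higher (background 50.8%) and 7 lower, with 4 above (background 17%), 1 below (background 16.7%) and 14 overlapping; the median start difference was 0.531 points (0.0256 over genes outside the Kcn names). None passed the test, and the smallest adjusted p was 0.983 for genes and 0.961 for starts (limma; 0 at an unadjusted p under 0.05 at either level). The list's gene means were 67.6 and 67.2% in Tet2+f_Camk2aCre and 66.9 and 67.0% in Tet2+f.

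Partners of potassium channels outside the Kcn names were looked at as a list of 22. Of these genes, among them the Kv4 partners Dpp6 and Dpp10, the Hcn pacemaker channels and the Dlg scaffolds, 14 had the higher gene mean in Tet2+f_Camk2aCre (background 51.1%) and 8 the lower, with a median difference of 0.335 points. Both libraries lay above in 7 (background 17.1%) and below in 3 (background 16%). None passed the test (smallest adjusted p 0.817, limma). Hcn3 had that value, with 57.4 and 56.9% in Tet2+f_Camk2aCre against 52.7 and 52.7% in Tet2+f, and was the single partner gene with an unadjusted p under 0.05 (background 5.3%). At the starts 14 were higher (background 50.8%) and 8 lower, 4 lay above (background 17%) and 4 below (background 16.7%), with a median difference of 0.0999 points and a smallest adjusted p of 0.961. The start of Dlg4, which encodes the postsynaptic scaffold PSD-95 that binds Kv1 channels, had 24.5 and 24.0% against 21.3 and 20.2% (unadjusted p = 0.024).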

How the data were processed

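Per the labels' protocols, whole-genome bisulfite libraries (Swift Accel-NGS Methyl-Seq) were read on a HiSeq X as 150 bp pairs, with a stated 500 M reads each. The submitters' processing notes name FastQC 0.11.5, Trim Galore 0.4.5, Bismark 0.19.0, edgeR without a version, and the build mm10, with no roles. The values the authors deposited are percent methylation per region and library; the way regions were drawn, and any coverage minimum, is not given in the sources used here. Gene names and strand came from the deposited table. Of the 3359 Kcn regions, 3278 overlap the RefSeq span of the gene they name, and 75 of the other 81 carry the name Kcna5.

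Libraries were grouped by their titles. Regions without a value in every library (158, none of them Kcn) were left out. A gene level is the mean of all regions with its name. A start level averages every region that touches the window from 2000 bp before to 500 bp past the RefSeq start; a body level is the mean of the gene's remaining regions within its RefSeq span. In profiles, regions were averaged per gene and then over genes. Of 19800 gene names in the RefSeq table (GRCm38.p6), 99.5% lay at its position. limma 3.58.1 in R 4.3.3 was run on log2((level + 0.01)/(1 - level + 0.01)), levels as shares of 1, over 849014 regions, 25181 genes and 19702 starts, with Benjamini-Hochberg adjustment at 0.05. This scale widens changes near 0 and 100%. The fit was tested on simulated levels. Single library means were compared by exact permutation.

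The members, gene lists and tests were chosen with earlier results of these data known. Genes named are those past the threshold (none), the 3 widest differences per direction among genes without overlap, the lowest and highest start of each family, and genes with roles in CA1. Multi-start genes, regions and comparison genes outside this rule were chosen after their values were seen. Alternatives covered the scale, offset, variance prior, replicate block, centring, left-out libraries, window, weighting and size filter. Single results of 4 Kcn genes are not reported here; these genes remain in the counts and means.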

Additional observations from a re-analysis of the deposited data

How the results depend on the processing

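No Kcn gene, start or region passed the adjusted threshold of 0.05 under any alternative run with limma: 0 genes over 15 alternatives, 0 starts over 16 and 0 regions over 12, with the smallest adjusted p between 0.689 and 0.986 for genes, 0.708 and 0.99977 for starts and 0.106 and 0.975 for regions. Fits with the replicate number as a block gave 0 calls at each level as well, and 0 genes, 1 start and 129 regions at an unadjusted p under 0.05, against 1, 2 and 139 without it; same-numbered libraries deviated together with a correlation of 0.0490 for genes, 0.0415 for starts and 0.00648 for regions, and pairing by number was therefore not adopted. The counts at an unadjusted p under 0.05 ranged from 0 to 4 genes, 0 to 6 starts and 18 to 167 regions. The difference of the mean over all Kcn regions stayed between 0.00708 and 0.379 points, and that of start minus body between -0.776 and -0.0317 points. Start differences turned for Kcnn2 (-0.154 points with only regions carrying its name) and for Kcnab1 (0.644 points at the first deposited region), both settings chosen after seeing the data. Family means turned with weighting by region length in Kv7 (-0.157), EAG (-0.173) and auxiliary genes (-0.0394), and with each gene counted once in auxiliary genes (-0.104). Leaving out each library in turn gave differences of -0.304 to 0.163 points in modulatory Kv genes, -0.236 to 0.246 in Kv7 genes, -0.508 to 0.544 in EAG genes, -0.0263 to 0.281 in calcium- and sodium-activated channels, -0.0214 to 0.291 in auxiliary genes, 0.196 to 1.11 in inward rectifiers, 0.104 to 0.384 in K2P channels and 0.116 to 0.326 in Kv pore genes. The causes were not tested. Groups without overlap cannot reverse when 1 library is left out, which is no sign of stability. Read depth per level is not known, and changes of 10 points were not recoverable in simulation at the levels simulated.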
